A study of Homo sapiens with 9 samples.

Results

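The genes described here are 50 genes of the G2 phase and of mitosis, taken by name from a list and followed through the summed reads of their transcripts. The list was chosen with earlier results of these data known. They are 50 of the 57796 gene symbols in the files, and all 50 passed the filter on low counts, which left 15109 genes for testing. The 9 libraries were made from poly(A)+ RNA of MCF10A-YAP cells. The parent line MCF10A consists of breast epithelial cells that are immortal but not transformed. Its MCF10A-YAP derivative overexpresses YAP in a constitutively active form, YAP being the coactivator that the Hippo pathway holds in check. All groups, controls included, carried the active YAP, had received a guide RNA (sgRNA) vector with antibiotic selection, and were harvested at 70 to 80% confluency. The groups were control, with a non-targeting sgRNA, and TRAM2-KO1 and TRAM2-KO2, each with its own sgRNA against TRAM2, a component of the translocon through which secreted proteins enter the endoplasmic reticulum, with 3 libraries (A, B and C) in each. The study found that knockout of TRAM2 inhibited the proliferation of these cells. At its own thresholds it detected few changes of mRNA after the knockout. The comparison here asks how the genes of cell division stood once TRAM2 was targeted, and RNA levels do not measure proliferation. The sources name no single-cell clones, and the level of an mRNA does not show which TRAM2 alleles were edited.

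Libraries held 21.7 to 27.6 M estimated reads, and the members had between 284 and 39547 reads in a library. TRAM2 itself stood at 481, 464 and 475 CPM (counts scaled to the library size) in the controls, here and below in the order A, B and C, at 219, 209.9 and 203 with TRAM2-KO1 and at 216, 212 and 210.5 with TRAM2-KO2, and all 6 knockout libraries lay below the controls. The 8 markers of basal breast epithelium summed to 2235 to 2306 TPM (scaled per length and library) in controls, 2065 to 2141 with TRAM2-KO1 and 2480.2 to 2518 with TRAM2-KO2, of which keratin KRT5 made 1149 to 1458, but the basal factor TP63 had only 1 to 3 reads. Reads for the 3 immune markers summed to 0 to 13 in a library (CD14 up to 13, CD3E at 0), for the endothelial marker CDH5 to 0 to 1, and for the 4 fibroblast markers to 29 to 59 (PDGFRB 10 to 25, COL1A1 5 to 31, COL3A1 0 to 9, PDGFRA 0 to 3). TRAM2-KO1 B and C stood apart from the other libraries in the GC content of the genes that read high in them. Across genes, the Spearman correlation of GC content with the deviation from the mean of all 9 libraries was -0.529 and -0.36. The other 7 libraries lay between -0.091 and 0.397, relative to a mean that includes TRAM2-KO1 B and C. Both ends of that range were TRAM2-KO2 libraries, C at -0.091 and A at 0.397, with TRAM2-KO2 B at 0.169. Calls that were lost without both libraries are given with their values without them.

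Genes of the G2 phase and of mitosis are switched on together late in the cell cycle. Cyclin B with its kinase CDK1 drives entry into mitosis, the Polo and Aurora kinases build and orient the spindle, the spindle checkpoint holds the anaphase-promoting complex back until all kinetochores are attached, and kinesins move chromosomes and microtubules. Many of these genes carry in their promoters a CHR (cell cycle genes homology region), the element bound by MuvB complexes, which repress the genes in resting cells and, joined by B-MYB and FOXM1, activate them in G2. CCAAT boxes, bound by NF-Y, often stand close by, whereas genes of the G1/S transition rely mainly on E2F sites. TEAD proteins are the factors through which YAP reaches DNA.

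As examples of these elements, the 110 bases before the start site are printed for 6 members. Of the 18 members that rose with TRAM2-KO2, 14 had a promoter at hand. The 6 were picked because they held both a CHR (TTTGAA) and a CCAAT box in that stretch. By contrast, 7 of the 14, CCNB1, KIF20A and NEK2 among them, held no TTTGAA in their promoters. The sequences are from RefSeq (GRCh38.p14), each on its gene's strand and 5′ to 3′. Capitals mark TTTGAA and CCAAT, or ATTGG where the CCAAT box lies on the opposite strand.
PLK1 (chr16:23678779-23678888, plus strand): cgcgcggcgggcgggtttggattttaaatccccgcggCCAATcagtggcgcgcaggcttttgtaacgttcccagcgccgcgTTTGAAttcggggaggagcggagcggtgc
CDC20 (chr1:43358871-43358980, plus strand): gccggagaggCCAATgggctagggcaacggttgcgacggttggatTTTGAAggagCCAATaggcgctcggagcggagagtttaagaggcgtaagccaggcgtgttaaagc
KIF23 (chr15:69414239-69414348, plus strand): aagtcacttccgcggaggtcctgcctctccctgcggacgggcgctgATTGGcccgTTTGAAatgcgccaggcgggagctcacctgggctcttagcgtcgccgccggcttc
CCNB2 (chr15:59105036-59105145, plus strand): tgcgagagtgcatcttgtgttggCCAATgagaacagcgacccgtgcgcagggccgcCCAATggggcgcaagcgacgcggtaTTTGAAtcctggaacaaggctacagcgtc
KIF18A (chr11:28108157-28108266, minus strand): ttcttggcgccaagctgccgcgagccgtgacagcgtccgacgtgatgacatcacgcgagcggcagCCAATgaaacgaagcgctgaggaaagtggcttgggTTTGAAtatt
CDCA8 (chr1:37692406-37692515, plus strand): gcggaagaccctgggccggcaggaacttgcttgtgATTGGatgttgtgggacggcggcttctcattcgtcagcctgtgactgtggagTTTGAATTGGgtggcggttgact
In all 6 the CHR lay downstream of a CCAAT box, at 29 bases before the start in PLK1 and CCNB2, 65 in CDC20, 55 in KIF23, 10 in KIF18A and 23 in CDCA8. In CDCA8 the CHR also shared its last base with a second, reversed CCAAT box.

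RefSeq promoters, here 250 bases before to 50 after each start, were at hand for 44 of the 50 members, with 55 promoters in all. Searched on both strands, TTTGAA was found in 33 of these 55 promoters (60%) and in 10.6% of the 15834 promoters of all genes tested. CCAAT was found in 42 of the 55 (76.4%) against 34.8% of all, and both stood together in 28 (50.9%) against 4.27%. A further 67 promoters of other mitotic genes held TTTGAA in 52.2%, but 68 promoters of G1/S and replication genes held it in 4.41%, although CCAAT was present in 58.8% of the latter. The TEAD motif GGAATG occurred in 7 of the 55 member promoters (12.7%) and in 11.6% of all. The members thus shared the CHR and the CCAAT box with other mitotic genes, and carried the letters of the TEAD motif about as often as genes at large.

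**Figure D1:**
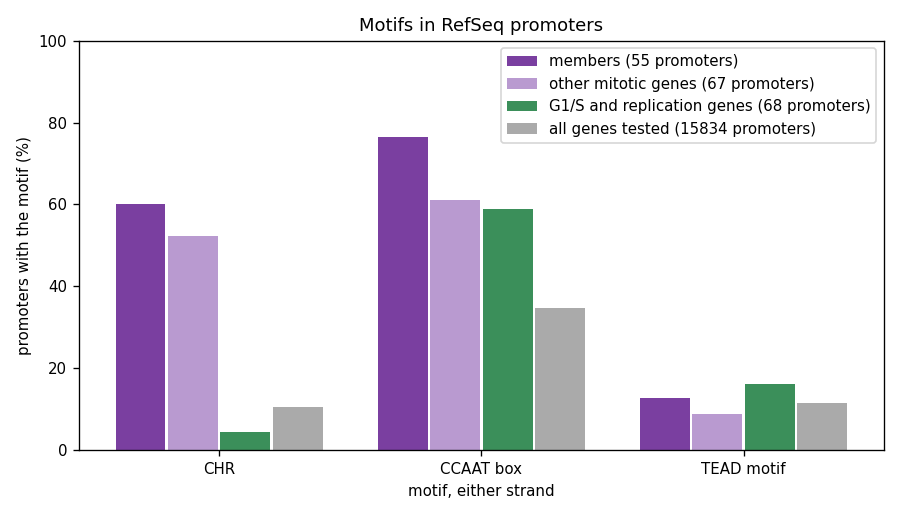
Share of RefSeq promoters (y axis, percent) that hold the CHR letters TTTGAA, the CCAAT box or the TEAD motif GGAATG on either strand (x axis), for members, other mitotic genes, G1/S and replication genes, and all genes tested. Members and other mitotic genes exceed 50% for the CHR, whereas G1/S genes and all genes tested lie at 4.41% and 10.6%.

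Taken as a sum, the 50 members received 0.716%, 0.72% and 0.724% of the reads in control A, B and C. Their share was 0.757%, 0.803% and 0.783% in the TRAM2-KO1 libraries and 0.792%, 0.817% and 0.837% in the TRAM2-KO2 libraries. All 6 knockout libraries lay above all 3 controls, and TRAM2-KO1 A was the lowest of the 6. In bulk RNA, more cells in G2 or mitosis and more RNA of these genes per cell cannot be told apart. The median member deviated from its control mean by 0.048, 0.13 and 0.095 on the log2 scale in the TRAM2-KO1 libraries and by 0.13, 0.15 and 0.17 in those of TRAM2-KO2. In the controls the same median stayed between -0.011 and 0.0068, and the median of all genes tested stayed between -0.0066 and 0.012 in the 9 libraries. Of the 50 members, 46, 45 and 44 were above their control mean in the TRAM2-KO1 libraries, and 45, 49 and 50 in the TRAM2-KO2 libraries.

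**Figure D2:**
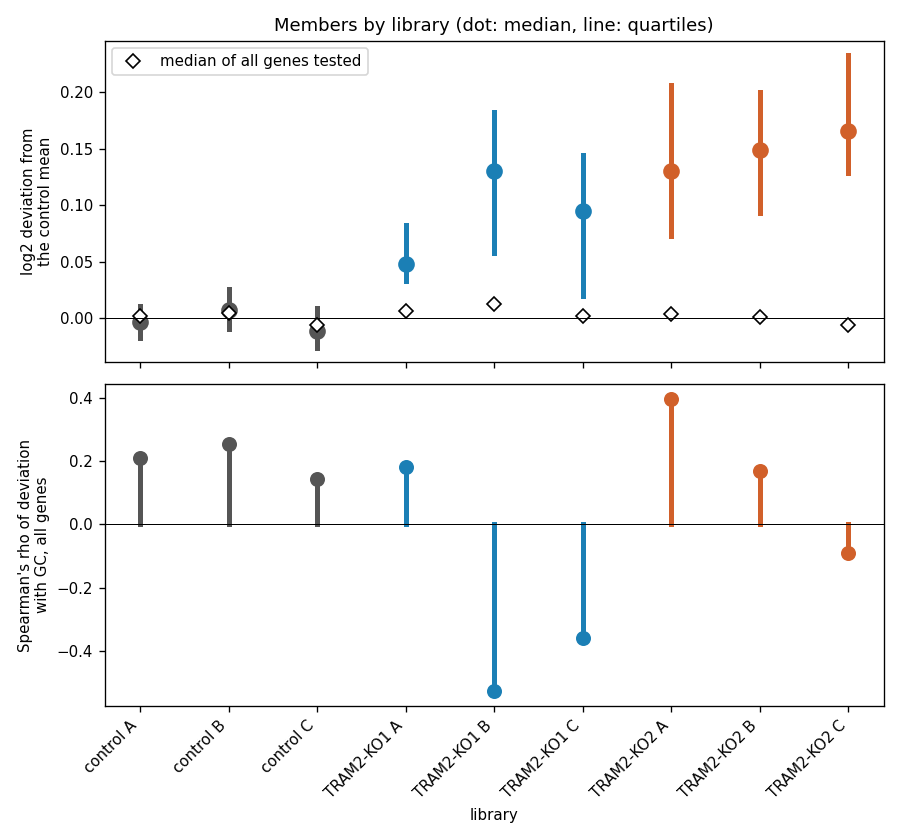
Upper panel, log2 deviation of the 50 members from their control mean in each library (dot for median, line for quartiles). Open diamonds give the median of all genes tested. Lower panel, Spearman's rho over all genes tested between GC content and each library's deviation from the mean of all 9 libraries. The members' medians lie at 0.048 to 0.17 in the 6 knockout libraries, and TRAM2-KO1 B and C have the most negative rho, at -0.529 and -0.36.

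With TRAM2-KO2, 18 of the 50 members rose and 0 fell, where "rose" and "fell" mean an adjusted p under 0.05 in edgeR's quasi-likelihood test over all 15109 genes. Over all genes tested, 1.75% rose and 2.5% fell. The members stood at higher levels than the genes tested at large, with medians of 113 and 19.3 CPM. Small changes are easier to call at higher counts, and the shares of all genes given here and below are not matched for level. All 50 members had a positive log2 fold change, with a median of 0.15 or 10.6%, and the median of all genes tested was -0.0031. At an unadjusted p under 0.05, 40 members were higher and 0 lower, against 6.86% and 8.17% of all genes tested. DESeq2 called 23 members higher and 0 lower, against 2.29% and 2.8% of the 12599 genes it gave an adjusted p. In 38 of the 50 members all 3 TRAM2-KO2 libraries lay above all 3 controls, against 11.3% of all genes tested. None of the 50 reached the log2 fold change of 0.5 that the study set for a call. The count of 18 was 9, 9 and 7 without control A, B or C, 21, 23 and 14 without TRAM2-KO1 A, B or C, and 10, 6 and 9 without TRAM2-KO2 A, B or C, while the share of all genes that rose ran from 0.817 to 2.21%. It was 4 with transcript length offsets, where 0.437% of all genes rose.

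With TRAM2-KO1, 3 of the 50 members rose (CCNB1, AURKA and PTTG1) and 0 fell, against 0.761% and 2.2% of all genes tested. The log2 fold change was positive in 44 members and its median was 0.089 or 6.35%. At an unadjusted p under 0.05, 22 were higher and 0 lower, against 8.54% and 10.1% of all genes tested. DESeq2 called 5 higher and 0 lower, against 1.96% and 4.67% of the 10154 genes it gave an adjusted p. In 25 members all 3 TRAM2-KO1 libraries lay above all 3 controls, against 11.9% of all genes tested. The count of 3 became 15 without TRAM2-KO1 A, where the calls over all genes grew as well, to 3.95% higher and 8.83% lower. It was 1 without TRAM2-KO1 B, C or TRAM2-KO2 B, and 0 without any single control. Without both TRAM2-KO1 B and C the 50 values ran from -0.057 to 0.23, 44 of them positive, and their median was 0.045 with 0 members past the threshold (0.175% of all genes rose). With each library's GC trend removed it was 0.063 with 3, against 0.86% of all genes.

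Both comparisons share the control libraries. For the mean of both guides against control, 11 members rose and 0 fell, against 1.34% and 2.53% of all genes tested, and DESeq2 called 21 higher and 0 lower, against 2.04% and 3.39% of 11988 genes. The count of 11 was 4 without any single control, 22, 14 and 7 without TRAM2-KO1 A, B or C, and 10, 6 and 7 without TRAM2-KO2 A, B or C, while the share of all genes that rose ran from 0.389 to 2.32%. Without both TRAM2-KO1 B and C it was 7. CCNB2, CKS2, NEK2, KIF20A, KIF23 and CKAP2 were then lost from the mean of both guides, with values of 0.087 to 0.18 and adjusted p of 0.056 to 0.164, and PLK1 and UBE2C were gained. Across the 4 comparisons, 19 members passed the threshold at least once by edgeR and 31 did not. The latter 31 had log2 fold changes from 0.0059 to 0.23 with TRAM2-KO2 (median 0.11, all positive) and from -0.064 to 0.43 with TRAM2-KO1 (median 0.08, 27 positive).

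**Figure D3:**
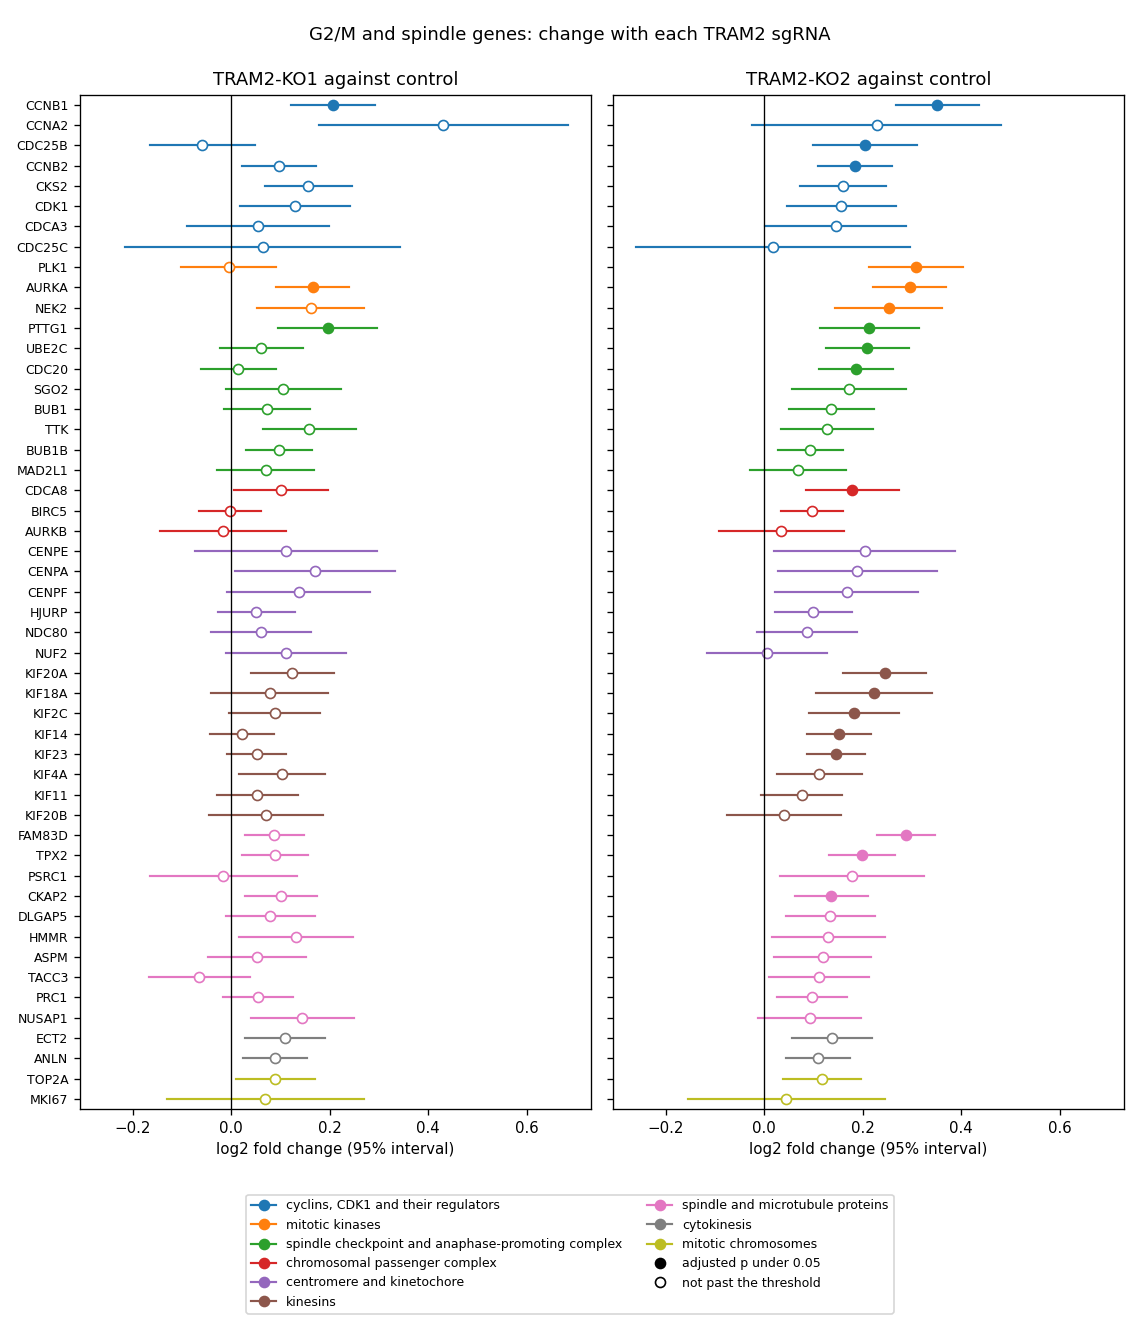
Log2 fold change of each of the 50 members (x axis, with 95% interval) with TRAM2-KO1 and TRAM2-KO2 against control, grouped by role in colour. Filled dots mark an adjusted p under 0.05, 3 with TRAM2-KO1 and 18 with TRAM2-KO2, and all 50 dots of the TRAM2-KO2 panel lie above 0.

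The cyclins, CDK1 and their regulators held 8 members, of which 3 rose with TRAM2-KO2 and 1 with TRAM2-KO1, with medians of 0.17 and 0.11. CCNB1 (ENSG00000134057, GRCh37 chromosome 5, 68462962 to 68474072), the cyclin B1 of mitotic entry, stood at 146, 148 and 147 CPM in the controls, at 162, 179.9 and 167 with TRAM2-KO1 and at 190.0, 188 and 184 with TRAM2-KO2. The 3 groups did not overlap. Its log2 fold change of 0.35 with TRAM2-KO2 (SE 0.0383, 95% interval 0.27 to 0.44, adjusted p = 0.000485), a rise of 27.6%, was the highest among the members with that guide. With TRAM2-KO1 it was 0.21 (SE 0.0385, adjusted p = 0.0153), and without TRAM2-KO1 B and C it was 0.14 (adjusted p = 0.145). CCNB2, the second B-type cyclin, had 49.0, 50.5 and 49.2 CPM in controls, 52.1, 54.2 and 53.0 with TRAM2-KO1 and 55.6, 56.9 and 56.5 with TRAM2-KO2, again without overlap. It rose with TRAM2-KO2 by 0.18 on the log2 scale (adjusted p = 0.0117) and had 0.10 (adjusted p = 0.169) with TRAM2-KO1. CKS2 is a small subunit of CDK complexes. Its CPM were 76.0, 76.7 and 78.0 in controls, 80.9, 88.4 and 88.1 with TRAM2-KO1 and 84.1, 87.2 and 86.4 with TRAM2-KO2. Both guides lay above the controls by a similar size, 0.16 and 0.16. In edgeR CKS2 passed only in their mean (adjusted p = 0.0298), with 0.0675 and 0.0508 for TRAM2-KO1 and TRAM2-KO2. DESeq2 called it with each guide (adjusted p = 0.0419 and 0.0318). Without TRAM2-KO1 B and C its value was 0.12 in the mean (adjusted p = 0.0943) and 0.069 with TRAM2-KO1.

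CDC25B, a phosphatase that activates CDK1, differed between the guides. It had 120.0, 118 and 122 CPM in controls, 122, 106 and 117 with TRAM2-KO1, where B was lowest, and 143, 135 and 138 with TRAM2-KO2. The log2 fold change was 0.21 with TRAM2-KO2 (adjusted p = 0.0385) and -0.058 with TRAM2-KO1 (adjusted p = 0.561). With transcript length offsets the TRAM2-KO2 value was -0.071 (adjusted p = 0.924), and the estimate for one of its transcripts ranged from 0 to 603 reads between libraries. CCNA2, cyclin A2 of S phase and G2, gave the largest log2 fold change with TRAM2-KO1 among the members, 0.43. The interval was wide, 0.18 to 0.68, with an adjusted p of 0.079 in edgeR and 0.00247 in DESeq2. Its libraries scattered, with 91.9, 99.8 and 88.1 CPM in controls, 106, 139 and 132 with TRAM2-KO1 and 109, 93.4 and 125 with TRAM2-KO2. TRAM2-KO1 B and C were its highest libraries, and without them the TRAM2-KO1 value was 0.19 (adjusted p = 0.805). CDK1 itself had log2 fold changes of 0.13 and 0.16 (adjusted p = 0.207 and 0.139), with all knockout libraries above the controls. CDCA3, a trigger of mitotic entry, had 0.15 with TRAM2-KO2 (adjusted p = 0.318), and CDC25C, another CDK1 phosphatase, had 0.018 (adjusted p = 0.979) with overlapping libraries.

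AURKA, PLK1 and NEK2, the 3 kinases listed by themselves, rose with TRAM2-KO2, with a median of 0.30, the highest of the 9 roles. The kinases CDK1, BUB1, TTK and AURKB are described with the complexes they work in. They did not pass in edgeR (adjusted p = 0.139, 0.0932, 0.154 and 0.875 with TRAM2-KO2). DESeq2 called CDK1 and BUB1 higher with TRAM2-KO2 (adjusted p = 0.0456 and 0.0422), but not TTK or AURKB. AURKA (ENSG00000087586, GRCh37 chromosome 20, 54944445 to 54967393), the Aurora A kinase of the spindle poles, stood at 153, 154 and 156 CPM in controls, 167, 181 and 172 with TRAM2-KO1 and 188, 188 and 193 with TRAM2-KO2. Controls were lowest, TRAM2-KO2 highest, and no groups overlapped. It rose by 0.30 on the log2 scale with TRAM2-KO2 (SE 0.0334, adjusted p = 0.000617) and by 0.17 with TRAM2-KO1 (SE 0.0335, adjusted p = 0.0249). The TRAM2-KO1 value without B and C was 0.11 (adjusted p = 0.369). PLK1 (ENSG00000166851, GRCh37 chromosome 16, 23688977 to 23701688), the Polo-like kinase of mitotic entry and spindle assembly, had 122, 117 and 116 CPM in controls, 125, 112 and 118 with TRAM2-KO1 and 149, 149.5 and 142 with TRAM2-KO2. Only the TRAM2-KO2 libraries stood above the controls, and those of TRAM2-KO1 surrounded them. PLK1 rose by 0.31 (SE 0.043, adjusted p = 0.00226) with TRAM2-KO2 and had -0.0047 (interval -0.10 to 0.092, adjusted p = 0.969) with TRAM2-KO1. NEK2, a kinase that splits centrosomes, had 27.1, 26.8 and 28.4 CPM in controls, 29.5, 32.5 and 30.2 with TRAM2-KO1 and 32.5, 32.7 and 32.9 with TRAM2-KO2. It rose with TRAM2-KO2 at 0.25 (adjusted p = 0.0162) and had 0.16 (adjusted p = 0.122) with TRAM2-KO1, which was 0.10 (adjusted p = 0.754) without B and C.

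Of the 8 members of the spindle checkpoint and anaphase-promoting complex, 3 rose with TRAM2-KO2 and 1 with TRAM2-KO1 (medians 0.15 and 0.085). The 3 were CDC20, the activator of the complex, UBE2C, the ubiquitin-conjugating enzyme that works with it, and PTTG1, the securin it destroys. CDC20 had 186, 186 and 180.4 CPM in controls, 191, 186 and 181 with TRAM2-KO1 and 213, 214 and 202 with TRAM2-KO2, so that only TRAM2-KO2 stood clear of the controls. Its log2 fold change was 0.19 (adjusted p = 0.0108) with TRAM2-KO2 and 0.015 (interval -0.061 to 0.09, adjusted p = 0.853) with TRAM2-KO1. UBE2C had 111, 109 and 109 CPM in controls, 117, 109.5 and 117 with TRAM2-KO1 and 131, 128 and 122 with TRAM2-KO2, with log2 fold changes of 0.061 (adjusted p = 0.419) and 0.21 (adjusted p = 0.0107). PTTG1 differed from both in that the guides lay at like levels. It stood at 59.9, 61.7 and 59.1 CPM in controls, 64.2, 70.8 and 72.0 with TRAM2-KO1 and 70.9, 69.0 and 69.6 with TRAM2-KO2, with log2 fold changes of 0.20 (adjusted p = 0.0477) and 0.21 (adjusted p = 0.0246). Without TRAM2-KO1 B and C its value with that guide was 0.089 (adjusted p = 0.661). The checkpoint components BUB1, BUB1B, TTK, MAD2L1 and SGO2 did not pass with either guide, apart from BUB1 in DESeq2 with TRAM2-KO2. Their log2 fold changes lay between 0.069 for MAD2L1, the inhibitor of CDC20, and 0.17 for SGO2, a protector of centromeric cohesion, with TRAM2-KO2. With TRAM2-KO1 they lay between 0.07 for MAD2L1 and 0.16 for TTK, the kinase that starts checkpoint signalling (adjusted p = 0.0822, and a value of 0.088 with adjusted p = 0.761 without TRAM2-KO1 B and C).

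Kinesins had the most members past the threshold with TRAM2-KO2, 5 of 8, and 0 of 8 with TRAM2-KO1 (medians 0.15 and 0.075). All 8 were positive with both guides, and with TRAM2-KO1 2 had an unadjusted p under 0.05. KIF20A, a kinesin of the central spindle, rose most among them. Its CPM were 107, 113 and 108 in controls, 116, 119.9 and 121 with TRAM2-KO1 and 126, 127 and 135 with TRAM2-KO2, in 3 separate ranges, and the log2 fold change with TRAM2-KO2 was 0.24 (SE 0.038, adjusted p = 0.00429). KIF18A (ENSG00000121621, GRCh37 chromosome 11, 28042166 to 28129703), the kinesin that aligns chromosomes and one of the enhancer target genes of the study, was the member with the lowest level per length, 9.65 ± 0.559 TPM in controls (SD, n = 3). It stood at 28.6, 25.8 and 27.3 CPM in controls, 27.3, 30.0 and 29.1 with TRAM2-KO1 and 31.5, 31.8 and 32.1 with TRAM2-KO2. TRAM2-KO1 overlapped the controls and TRAM2-KO2 did not, with log2 fold changes of 0.079 (adjusted p = 0.467) and 0.22 (interval 0.11 to 0.34, adjusted p = 0.0418). Under the alternatives KIF18A kept a value of 0.19 to 0.26 with TRAM2-KO2, but its adjusted p ran from 0.0114 to 0.222, and it missed the threshold in 11 of 20.

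KIF2C, which depolymerises microtubules at centromeres, had 89.1, 86.4 and 85.6 CPM in controls, 90.0, 98.8 and 89.0 with TRAM2-KO1 and 99.9, 98.5 and 98.2 with TRAM2-KO2 (0.18 on the log2 scale, adjusted p = 0.0338). KIF14, a kinesin of cytokinesis, kept to narrow ranges, with 64.9, 64.4 and 64.1 CPM in controls, 65.4, 66.0 and 64.9 with TRAM2-KO1 and 71.5, 71.7 and 71.7 with TRAM2-KO2 (0.15, adjusted p = 0.0152). KIF23, part of centralspindlin, had 192, 197 and 192 CPM in controls, 198, 204 and 201 with TRAM2-KO1 and 212, 214 and 216 with TRAM2-KO2 (0.15, adjusted p = 0.0117). For each of these 3 genes the TRAM2-KO2 libraries stood above all others, except that TRAM2-KO1 B reached the TRAM2-KO2 range for KIF2C. The remaining kinesins did not pass. KIF4A, a chromokinesin, had 0.11 with TRAM2-KO2, KIF11, the motor that separates spindle poles, 0.076, and KIF20B 0.041.

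Among the 10 spindle and microtubule proteins, FAM83D, TPX2 and CKAP2 rose with TRAM2-KO2 and 0 passed with TRAM2-KO1 (medians 0.13 and 0.084), where 5 had an unadjusted p under 0.05. FAM83D (ENSG00000101447, GRCh37 chromosome 20, 37554955 to 37581749), which brings casein kinase 1 to the spindle, had the smallest adjusted p of all members. It stood at 108, 108 and 109 CPM in controls, 116, 114 and 116 with TRAM2-KO1 and 131, 132 and 133 with TRAM2-KO2. Replicates lay close together and the 3 groups were separate, with log2 fold changes of 0.088 (SE 0.0269, adjusted p = 0.123) and 0.29 (SE 0.0267, adjusted p = 0.000149). TPX2, the activator of AURKA on the spindle, had 394, 395 and 387 CPM in controls, 404, 426 and 421 with TRAM2-KO1 and 442, 444 and 463 with TRAM2-KO2. It rose with TRAM2-KO2 by 0.20 (adjusted p = 0.00358) and had 0.089 (adjusted p = 0.159) with TRAM2-KO1. CKAP2, a microtubule stabiliser, had 117, 121 and 119 CPM in controls, 123, 132 and 128 with TRAM2-KO1 and 129, 130.1 and 134 with TRAM2-KO2 (0.14 on the log2 scale, adjusted p = 0.0459). The other 7 did not pass with TRAM2-KO2, from 0.092 for NUSAP1 to 0.18 for PSRC1, with HMMR, DLGAP5, ASPM, TACC3 and PRC1 in between. TACC3, a stabiliser of kinetochore fibres, had the lowest log2 fold change of all members with TRAM2-KO1, -0.064 (adjusted p = 0.49).

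**Figure D4:**
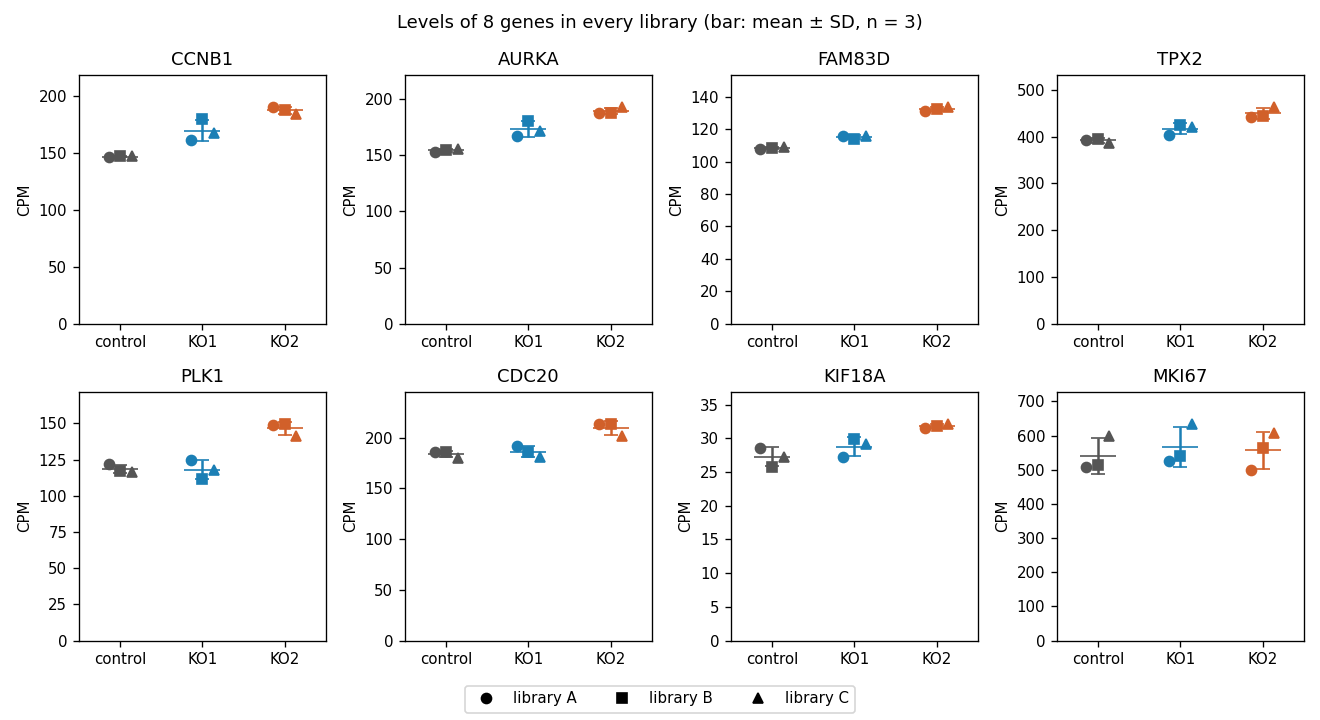
CPM (y axis, from 0) of 8 members in every library of control, TRAM2-KO1 (KO1) and TRAM2-KO2 (KO2), with mean ± SD (n = 3). The groups are separate for CCNB1, AURKA, FAM83D and TPX2, only TRAM2-KO2 stands above the controls for PLK1, CDC20 and KIF18A, and the groups overlap for MKI67.

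In the chromosomal passenger complex, which corrects faulty attachments, 1 of 3 members rose. CDCA8, or borealin, had 84.2, 77.9 and 76.3 CPM in controls, 84.0, 86.6 and 85.2 with TRAM2-KO1 and 91.2, 86.5 and 92.3 with TRAM2-KO2, where control A lay within the TRAM2-KO1 range (0.18 with TRAM2-KO2, adjusted p = 0.0427). Its kinase AURKB had -0.016 and 0.035, and survivin, BIRC5, had -0.0022 and 0.10, none past the threshold. None of the 6 centromere and kinetochore members passed with either guide, although all 6 were positive in both. With TRAM2-KO2 4 of the 6, and with TRAM2-KO1 1, had an unadjusted p under 0.05, and the medians were 0.13 and 0.11. CENPE, the kinetochore kinesin, and CENPF varied widely between libraries. CENPF, for example, had 209, 217 and 224 CPM in controls, 224, 243 and 249.7 with TRAM2-KO1 and 218, 250.0 and 263 with TRAM2-KO2. CENPA, the histone of centromeric chromatin, had 0.19 with TRAM2-KO2 and its chaperone HJURP 0.10, while NDC80 and NUF2 of the microtubule-binding NDC80 complex had 0.088 and 0.0059.

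The members of cytokinesis (ANLN and ECT2) and of mitotic chromosomes (TOP2A and MKI67) did not pass in edgeR. DESeq2 called ANLN, ECT2 and TOP2A higher with TRAM2-KO2 (adjusted p = 0.00643, 0.0227 and 0.0332), but not MKI67, and none of them with TRAM2-KO1. ANLN, the actin-binding scaffold of the cleavage furrow, stood at 1309.9, 1307 and 1297 CPM in controls, 1342, 1424 and 1401 with TRAM2-KO1 and 1373, 1410.3 and 1442 with TRAM2-KO2. All knockout libraries lay above the controls, by 0.09 and 0.11 on the log2 scale (adjusted p = 0.145 and 0.0693). ECT2, the activator of RhoA in cytokinesis, had 0.11 and 0.14 (adjusted p = 0.152 and 0.0682). TOP2A, the topoisomerase that untangles sister chromatids, stood at 572, 575 and 586 CPM in controls, 597, 642 and 605 with TRAM2-KO1 and 600.3, 633 and 647 with TRAM2-KO2, again without overlap with the controls (log2 fold changes 0.09 and 0.12, adjusted p = 0.221 and 0.121). MKI67, the proliferation marker Ki-67, behaved otherwise. It had 507, 513 and 599.6 CPM in controls, 526, 539.9 and 634 with TRAM2-KO1 and 501, 563 and 608 with TRAM2-KO2, so that library C was the highest in each group and the groups overlapped. Its log2 fold changes were 0.07 (interval -0.13 to 0.27) and 0.045 (interval -0.15 to 0.24), and neither passed (adjusted p = 0.725 and 0.907).

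**Figure D5:**
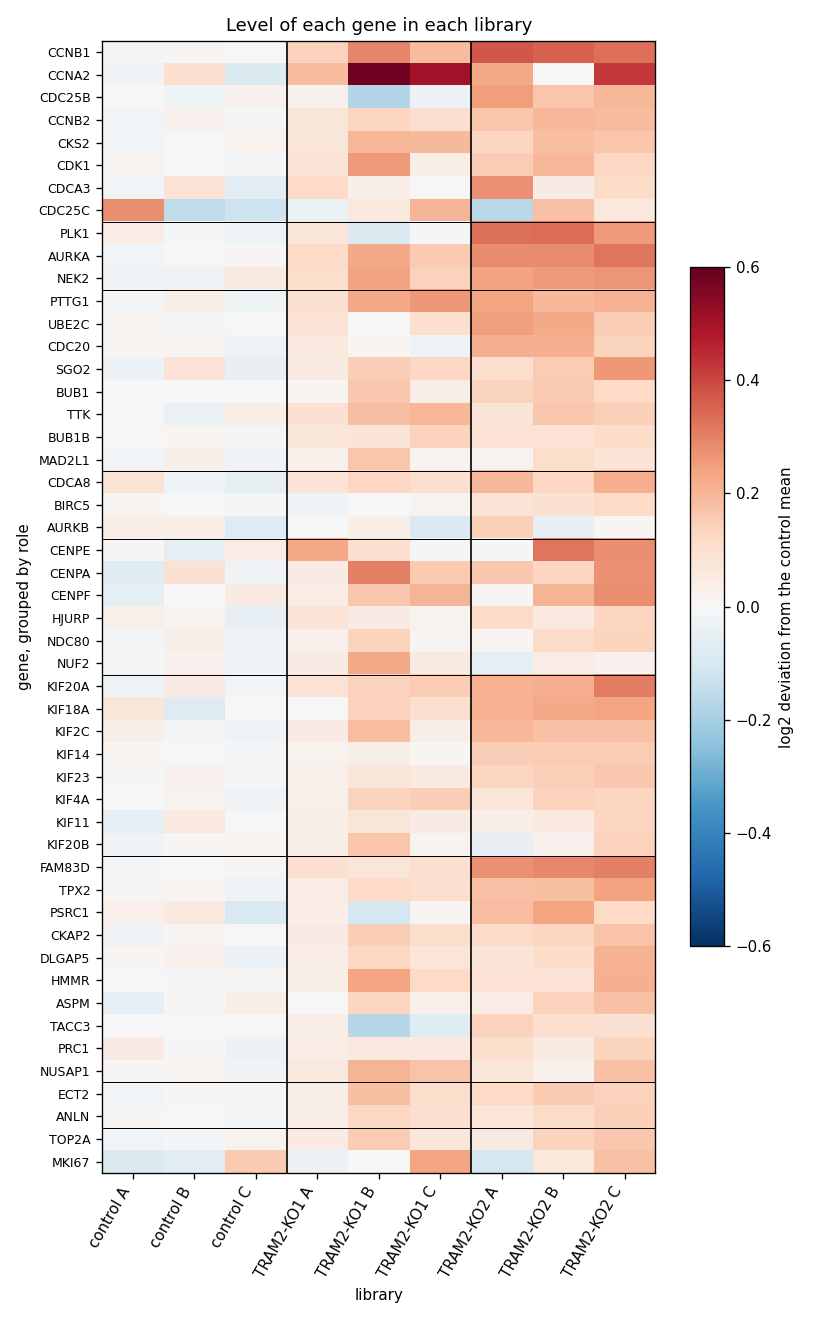
Log2 deviation of each member (rows, grouped by role and ordered by the change with TRAM2-KO2) from its control mean in each of the 9 libraries (columns). In the TRAM2-KO2 columns values are above 0 (red) for 45, 49 and 50 of the 50 members, and CCNA2 in TRAM2-KO1 B (0.58) is the highest value.

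Per length, the members spanned 9.65 to 497 TPM in controls, with a median of 54.9 TPM. ANLN (497 ± 7.32 TPM, SD, n = 3), UBE2C (302 ± 7.89), CDC20 (236 ± 14.2), CKS2 (231 ± 5.19) and CCNB1 (203 ± 4.64) were the highest. KIF18A (9.65 ± 0.559), KIF14 (10.2 ± 0.102), PSRC1 (12.1 ± 0.377) and CDC25C (13.6 ± 2.58) were the lowest. CDC20 and CKS2 lay within their spread of each other, as did KIF18A and KIF14, and PSRC1 and CDC25C.

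The guides were compared directly because a gene that passes with 1 guide need not differ from the other. Of the 50 members 5 were higher with TRAM2-KO2 than with TRAM2-KO1 and 0 were lower, against 1.42% and 0.867% of all genes tested. The differences on the log2 scale were 0.31 for PLK1 (SE 0.043, adjusted p = 0.00489), 0.26 for CDC25B (0.0214), 0.20 for FAM83D (0.00403), 0.17 for CDC20 (0.0288) and 0.13 for KIF14 (0.0473), with adjusted p in parentheses. In all 5 the TRAM2-KO2 libraries lay above the TRAM2-KO1 libraries. Over the 50 members the median difference was 0.053, with 40 positive. The count of 5 was 2 without TRAM2-KO1 C and without TRAM2-KO2 A or B, and 3 without control A or TRAM2-KO2 C.

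Of these 5, PLK1, CDC25B and CDC20 have 57.1, 59.1 and 57.9% GC, FAM83D 51.2% and KIF14 38.3%, against a member median of 42.7%. TRAM2-KO1 B and C read low in GC-rich genes, and the part of this in the differences was not tested. With each library's GC trend removed the differences were 0.23 for PLK1, 0.15 for CDC25B, 0.20 for FAM83D and 0.19 for KIF14, all past the threshold, whereas CDC20 had 0.075 (adjusted p = 0.32). Without TRAM2-KO1 B and C, which left 1 library of that guide, they were 0.24 for PLK1, 0.19 for CDC25B, 0.20 for FAM83D, 0.14 for CDC20 and 0.14 for KIF14, and none of these 5 passed.

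For other members the test of the difference depended on the processing. KIF18A, which passed with TRAM2-KO2 only, had a difference of 0.15 (interval 0.028 to 0.26, adjusted p = 0.173), and 0.21 (adjusted p = 0.0313) with the GC trend removed. KIF23, TPX2 and UBE2C, likewise, had 0.094, 0.11 and 0.15 (adjusted p = 0.1, 0.0899 and 0.0734), and 0.14, 0.13 and 0.15 with the GC trend removed (adjusted p = 0.011, 0.0246 and 0.038). CCNB1, which rose with both guides, had 0.14 (interval 0.06 to 0.23, adjusted p = 0.0821), 0.19 with the GC trend removed (adjusted p = 0.00859) and 0.22 without TRAM2-KO1 B and C (adjusted p = 0.0333), the only member to pass in that alternative. AURKA had 0.13 (adjusted p = 0.0746) and 0.15 with the GC trend removed (adjusted p = 0.0162). With ASPM, 11 members passed with the GC trend removed, against 2.05% of all genes. DESeq2 called 10 members higher with TRAM2-KO2 than with TRAM2-KO1, and 0 lower, against 3.73% and 1.98% of 10764 genes. They were 4 of the 5 (not KIF14) and CCNB1, AURKA, UBE2C, KIF23, TPX2 and TACC3.

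The markers of basal epithelium moved with the guides too. Of the 7 tested, 3 rose and 1 fell with TRAM2-KO2 (median 0.19), against 1.75% and 2.5% of all genes tested. With TRAM2-KO1 0 rose and 2 fell (median -0.094), against 0.761% and 2.2%. There CDH1, the cadherin of epithelial junctions, had -0.41 and the integrin ITGA6 -0.36. Between the guides 5 of the 7 were higher with TRAM2-KO2, against 1.42% of all genes tested. All 7 were positive, with a median of 0.31 beside the 0.053 of the 50 members. The part of this shift in the members' differences was not tested.

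GC content moved with the TRAM2-KO1 values over all genes (Spearman's rho -0.414 across 15109 genes, which share libraries and are not independent) but hardly with those of TRAM2-KO2 (-0.0067). The members are poorer in GC than the genes tested, with medians of 42.7% and 47.6%. Among the 6440 genes between 38.9% and 49.1% GC, the middle range of the members, the median log2 fold change was 0.04 with TRAM2-KO1 and -0.0028 with TRAM2-KO2. The 24 members in that range had medians of 0.097 and 0.13. With the GC trend removed, 28 members rose with TRAM2-KO2, among them all 18 named above, and the share of all genes that rose went from 1.75 to 3.2%.

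Among the 44 members with a promoter at hand, those with the letters TTTGAA did not stand higher by their medians than those without them. AURKA, FAM83D, TPX2, UBE2C, BIRC5 and TTK had no promoter at hand and are in neither group. Of these, AURKA, FAM83D, TPX2 and UBE2C rose with TRAM2-KO2, by 0.30, 0.29, 0.20 and 0.21. A CHR with other letters was not searched for. The 30 members with TTTGAA had 0.12 as their median log2 fold change with TRAM2-KO2, and 7 of them rose, while the 14 with promoters but without TTTGAA had 0.19 and 7 rose. With TRAM2-KO1 the medians were 0.079 and 0.10 and 0 and 2 rose, but 96.7% with TTTGAA and 71.4% without it were positive. Beyond the members, 1483 genes with TTTGAA had a median of 0.0023 with TRAM2-KO2, and 2.02% rose, against -0.0033 and 1.59% of 9380 genes without it. With TRAM2-KO1 these medians were 0.02 and 0.0039, and 0.742% and 0.789% rose.

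The neighbouring programmes of the cell cycle were read in the same fit. Of 70 other mitotic genes, 7 rose and 0 fell with TRAM2-KO2 and 2 rose and 0 fell with TRAM2-KO1. Over all genes tested, 1.75% rose and 2.5% fell with TRAM2-KO2, and 0.761% and 2.2% with TRAM2-KO1. The medians of the other mitotic genes, 0.055 and 0.038, were below those of the members. KPNA2, an importin that carries TPX2, rose with both guides (0.12, adjusted p = 0.043, and 0.17, adjusted p = 0.00547). DEPDC1, RACGAP1, the partner of KIF23 in centralspindlin, and KNSTRN, a spindle protein, rose with TRAM2-KO2 at 0.21, 0.18 and 0.17. Genes of G1/S and DNA replication lay on the other side of 0. Of 58, 0 rose and 4 fell with TRAM2-KO2, against 1.75% and 2.5% of all genes tested. With TRAM2-KO1 0 rose and 2 fell, near the 0.761% and 2.2% of all genes. Their medians were -0.064 and -0.023, with 44 and 39 negative, where 7737 and 7349 of all 15109 genes were. CLSPN, the checkpoint mediator claspin, had -0.19 (adjusted p = 0.0132) and -0.18 (adjusted p = 0.0161), MCM5 of the replicative helicase -0.23 (adjusted p = 0.00683) and -0.11 (adjusted p = 0.152). E2F8, a repressor of the E2F family, had -0.17 and -0.24 (adjusted p = 0.143 and 0.0392), and E2F2 -0.27 and -0.33 (adjusted p = 0.163 and 0.0786). The count of 4 was 0 when any single control or TRAM2-KO2 B was left out.

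The 18 genes that encode regulators of G2/M transcription, FOXM1, MYBL2 and the MuvB subunits among them, had medians of 0.015 with TRAM2-KO1 and 0.0095 with TRAM2-KO2. By edgeR 0 rose and 0 fell with either guide, with 2 higher and 1 lower at an unadjusted p under 0.05 in each. Over all genes tested, 8.54% were higher and 10.1% lower at that p with TRAM2-KO1, and 6.86% and 8.17% with TRAM2-KO2. DESeq2 called 0 with TRAM2-KO1 and 1 higher with TRAM2-KO2, where it called 2.29% of all genes higher. The smallest p values in the mean of both guides were those of the pocket proteins RBL1 (0.10 and 0.18, adjusted p = 0.062 with TRAM2-KO2) and RBL2 (0.12 and 0.12), the MuvB subunit LIN37 (-0.26 and -0.25) and E2F5 (0.13 and 0.22). Of 15 CDK inhibitors and growth arrest genes, 12 were tested. With TRAM2-KO2 BTG1 rose (0.30, adjusted p = 0.00538) and its paralog BTG2 fell (-0.28, adjusted p = 0.0171), where 1.75% of all genes rose and 2.5% fell. With TRAM2-KO1 0 rose and 0 fell by edgeR, and 0 by DESeq2. At an unadjusted p under 0.05, 2 were higher and 4 lower, against 8.54% and 10.1% of all genes tested. CDKN1B, the inhibitor p27, had -0.16 and -0.19 (adjusted p = 0.166 and 0.0926), and GADD45A, a stress gene, 0.14 and 0.15 (adjusted p = 0.131 and 0.088).

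With TRAM2-KO2 4 members passed under all 20 alternatives in processing and libraries. They were CCNB1 (0.34 to 0.36), AURKA (0.28 to 0.31), FAM83D (0.28 to 0.30) and TPX2 (0.18 to 0.21 on the log2 scale), with adjusted p of at most 0.021, 0.0206, 0.00673 and 0.0291. PLK1 and KIF20A passed in all but the alternative with transcript length offsets, where their adjusted p was 0.0776 and 0.113. With TRAM2-KO1 no member passed under all 20.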

How the data were processed

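Poly(A)+ RNA of 9 libraries was analysed. The authors removed adapters (cutadapt) and ran Salmon for transcript quantification. Not given in the sources used here were the tool versions, genome build and transcript release. The deposited values were estimated counts per transcript (not normalised), TPM, scaled over all transcripts of a library, and transcript lengths. Estimated counts were summed by gene symbol through GENCODE release 44 on GRCh37 (220336 of 226030 transcripts, 98.4 to 98.5% of reads) and rounded. edgeR 4.0.16 (R 4.3.3) was run with filterByExpr (minimum 10 reads), TMM factors, a prior count of 2 and a quasi-likelihood fit of all 9 libraries with the groups as terms. Tests were two-sided with Benjamini-Hochberg adjustment over all genes tested, and adjusted p values are from edgeR unless DESeq2 (1.42.0) is named. CPM use TMM-adjusted library sizes, and SE is that of a log2 fold change. The common biological coefficient of variation was 5.81%. The procedure was tested on simulated counts, drawn independently for each gene and with no GC trend. Those counts cannot show how such a trend moves the calls.

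The members and gene lists were chosen with earlier results of these data known. Values per library are given for members with an adjusted p under 0.05 in any of 4 comparisons, for KIF18A and for TRAM2, and up to 4 genes of each other list were taken by their p for the mean of both guides, smallest first. CCNA2, CENPF, ANLN, TOP2A and MKI67 were given in full after their values were seen. In all, 19 alternatives were planned and 1 was added after seeing the data. The series' design text names an empty vector, TRAM2-overexpression and YAP-overexpression, so groups were taken from the sample labels. Nothing else shows how far cultures were kept apart, and p values measure the spread between these libraries.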

Additional observations from a re-analysis of the deposited data

Results flagged for a closer look

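For 5 members the test of the difference between the guides passed the threshold, with TRAM2-KO2 above TRAM2-KO1: PLK1 by 0.31, CDC25B by 0.26, FAM83D by 0.20, CDC20 by 0.17 and KIF14 by 0.13 on the log2 scale. The FAM83D difference was 0.20 with the GC trend removed and 0.20 without TRAM2-KO1 B and C (adjusted p = 0.00186 and 0.0655). PLK1 gave 0.23 and 0.24 under the same changes (adjusted p = 0.00147 and 0.0695), and CDC20 gave 0.075 and 0.14 (adjusted p = 0.32 and 0.28). The part of the GC trend of TRAM2-KO1 B and C in these differences was not tested further. FAM83D has 51.2% GC and KIF14 38.3%, and the KIF14 difference was 0.19 with the GC trend removed.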

How the results depend on the processing

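No member fell in any of the 4 comparisons under the alternatives run. For TRAM2-KO1, TRAM2-KO2, the mean of both guides and the difference between guides in turn, leaving out single libraries gave 0 to 15, 6 to 23, 4 to 22 and 2 to 7 members that rose, and medians of 0.069 to 0.11, 0.13 to 0.16, 0.10 to 0.13 and 0.035 to 0.0897. DESeq2 called 5 with TRAM2-KO1, 21 in the mean and 10 in the difference, and no low-count filter gave 8 in the difference. Fitting only the groups compared gave 0 with TRAM2-KO1 and 2 in the difference. With the GC trend removed 28 rose with TRAM2-KO2, 21 in the mean and 11 in the difference, and the medians of TRAM2-KO1 and of the difference were 0.063 and 0.087. With the GC trend removed and the replicate block these were 28, 20 and 9, and 0.063 and 0.087. Transcript length offsets gave 0, 4, 3 and 0 for the comparisons in the order above, and turned CDC25B with TRAM2-KO2 to -0.071. Summing only protein-coding transcripts gave 11 with TRAM2-KO2. Without TRAM2-KO1 B and C, an alternative added after seeing the data in which library A is assumed to vary like the other groups, 0 rose with TRAM2-KO1 (median 0.045), 7 in the mean and 1 in the difference (median 0.10). The cause of these shifts was not tested. Libraries with the same letter did not deviate together (correlations of -0.087 to 0.093), so the letters are not taken as pairs, and the replicate block gave 2, 18, 13 and 4 members that rose. For noisy members such as CDC25C, whose interval with TRAM2-KO2 was -0.26 to 0.30, changes inside the interval were not detectable with 3 libraries per group.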
